A study of Mus musculus with 24 samples.

Results

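Gene expression in the colon was compared between wild-type mice (WT) and mice whose intestinal epithelial cells carry a knockout of Axin1 (KO), both killed 7 days into an experiment with DSS (dextran sulfate sodium), an irritant that injures the colonic lining and causes colitis. The comparison used the 6 libraries labelled as DSS-treated and sacrificed at day 7, 3 of each genotype, out of 24 libraries in the series, and it covered all genes. All of these mice were C57BL/6, and both genotypes had received DSS. The other colon libraries used here came from untreated WT and KO mice and from DSS-treated WT and KO mice at day 13. There were again 3 of each, and the design describes them as biological replicates. The sources used here give no age, sex or DSS dose, and they do not name the driver that restricts the deletion to the epithelium. The RNA came from whole colon tissue, so it also holds RNA of muscle, nerve, connective tissue, vessels and immune cells, in which the gene was not targeted.

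Axin1 is a scaffold protein. It brings beta-catenin together with Apc and the kinases Gsk3 and casein kinase 1, which mark beta-catenin for destruction. When this complex is not working, beta-catenin enters the nucleus and, with Tcf factors, switches on genes that keep crypt cells dividing, along with feedback genes such as Axin2, Rnf43 and Znrf3 that dampen the signal. In DSS colitis the surface epithelium is lost, neutrophils and monocytes enter the wall, fibroblasts release growth factors and matrix-degrading enzymes, and the crypts then regrow.

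Axin1 (ENSMUSG00000024182, chr17:26138688-26195811 on the plus strand of GRCm38) comes first as the check on the labels. Levels are given in CPM, the count of a gene scaled to the size of its library. They were 47.4, 45.3 and 49.1 CPM in the WT libraries and 15.04, 15.2 and 15.7 CPM in the KO libraries. The groups were far apart and each was tight. Axin1 fell by 1.62 ± 0.12 on the log2 scale in KO (± is the standard error here and for every other log2 value; adjusted p = 9.37e-06, edgeR's quasi-likelihood F test with Benjamini-Hochberg adjustment), to 32.4% of the WT mean. A two-sided exact permutation test gave p = 0.1, its lower limit for groups of 3. In untreated colon the KO libraries held 17.9, 16.8 and 14.5 CPM, close to the level at day 7. The remaining reads were not assigned to a cell type.

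Axin1 was the only gene of the 18102 tested to pass an adjusted p of 0.05, which is 0.00552% of them. The next 492 genes shared an adjusted p of 0.0647, so a large number of differences lay just above the threshold. The count was sensitive to single libraries: 927 genes passed without WT replicate 1, 2441 without WT replicate 3, 748 without WT replicate 2 of day 13 and 25 without untreated KO replicate 3, and 1 without each other library. With a threshold of 0.10, 1561 genes were lower in KO (8.62%) and 890 were higher (4.92%). At an unadjusted p under 0.05, 2778 genes were lower (15.3%) and 2109 higher (11.7%), and DESeq2 put 1566 lower (9.05%) and 888 higher (5.13%) past its adjusted p of 0.05. In the following text, "lower" and "higher" for a count of list members mean past the unadjusted p of 0.05 in that direction, and the 15.3% and 11.7% of all genes are the background for those counts. Without WT replicate 2 the background was 1066 genes lower (5.89%) and 1333 higher (7.36%). Every KO library was below every WT library in 12.9% of all genes and above in 14.8%, which is the background for the statements on overlap. The median log2 fold change over all genes was 0.05. Members of a list that did not pass the filter on low counts were not tested, and their number is given where there were any.

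**Figure D1:**
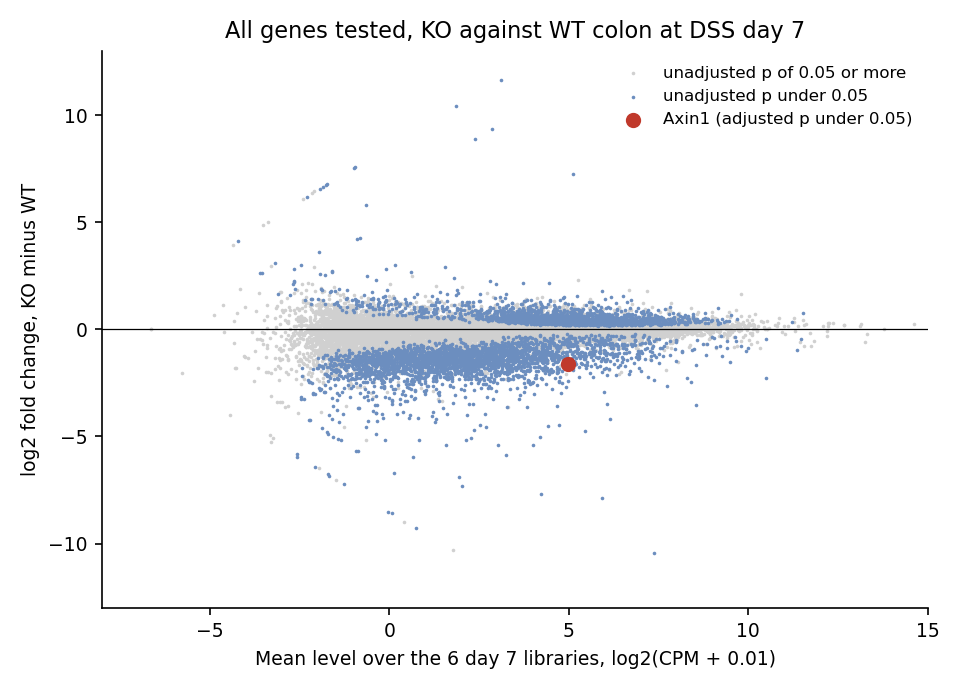
Log2 fold change of KO against WT at day 7 (vertical axis) against the mean level over the 6 libraries (horizontal axis, log2 scale) for the 18102 genes tested. Each point is a gene, blue points have an unadjusted p under 0.05, and Axin1 (red), at a log2 fold change of -1.62, is the only gene past the adjusted threshold. The 4 Y-linked genes, with a median of 9.88, are among the points highest above 0.

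The libraries themselves differed in ways that touch these counts. Their total expected counts ran from 15.65 M (WT replicate 2) to 25.09 M, and mitochondrial genes took 4.648% to 5.718%. The WT libraries differed more from each other than the KO libraries did: the median SD of log2(CPM + 1) over genes was 0.273 in WT and 0.1554 in KO, and 74.26% of genes had the larger SD in WT. WT replicate 2 stood apart. Its smooth muscle markers summed to 13990 CPM, against 4366 to 7539 in the other day 7 libraries. Among the WT libraries, it was the highest in 89.52% of the genes lower in KO and in 41.42% of all genes. KO replicate 1 was the only one of the 6 with Y-linked expression (147 CPM), so the sexes of the mice were not balanced between the groups. Replicate numbers were assigned here in accession order and only name a library. Values without WT replicate 2 are therefore given beside most list results. A stricter count, added after the data were seen, took genes past the unadjusted p with all libraries and again when each of the 6 day 7 libraries was left out in turn: 818 genes were lower (4.52%) and 741 higher (4.09%) by it, and it is called the leave-one-out count below. In 92.05% of those 818 genes the highest WT library was replicate 2, against 41.42% of all genes. In whole tissue, fewer cells of a type and less RNA per cell cannot be told apart.

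The Wnt pathway came first because Axin1 belongs to it. In the destruction complex and its regulators (20 genes) the median log2 fold change was 0.12, with 2 lower, Axin1 itself and Apc2, a paralog of Apc, and 1 higher, Axin2. Leaving out WT replicate 2, the median was 0.07, with 2 lower and 2 higher. Axin2 (chr11:108920349-108950783, plus strand) encodes the paralog of Axin1, which can take its place in the complex and whose gene is a target of beta-catenin. It had 16.5, 15.2 and 19.7 CPM in WT and 35.6, 31.8 and 38.6 CPM in KO. Every KO library lay above every WT library, and the difference was 1.04 ± 0.18 (adjusted p = 0.0647). Without WT replicate 2 it was 0.97. In untreated colon Axin2 had 23.8, 24.4 and 29.3 CPM in WT and 26.7, 31.8 and 32.4 CPM in KO. The day 7 WT libraries were thus the lowest of these 4 groups, while those of KO at day 7 overlapped with untreated KO. On the deposited TPM scale, which divides by gene length and allows genes to be compared, the order of the paralogs turned round: Axin1 had 19.9, 31.7 and 21.0 TPM and Axin2 9.25, 9.69 and 9.68 TPM in WT, against 9.55, 6.02 and 6.04 TPM for Axin1 and 17.0, 14.5 and 17.7 TPM for Axin2 in KO. Axin1 was the higher of the pair in all 3 WT libraries and Axin2 in all 3 KO libraries. Gsk3b (0.24), Csnk1d (0.19) and Dvl3 (0.18), a kinase of the complex, a casein kinase 1 and a Dishevelled protein, had small positive values with adjusted p from 0.224 to 0.283.

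The Wnt feedback inhibitors split into members that were higher and members that were lower in KO. Of 16 listed, 13 were tested, and Dkk1 and Dkk4 had no counts in any day 7 library. In the tested genes, 2 were higher and 7 lower, with a median of -1.40. Rnf43, a ubiquitin ligase that removes Frizzled receptors from the cell surface, had 29.0, 47.4 and 48.8 CPM in WT and 59.6, 71.5 and 67.2 CPM in KO (0.66 ± 0.19, adjusted p = 0.0684). Its homolog Znrf3 had 7.44, 10.7 and 10.7 CPM in WT and 16.5, 12.3 and 12.4 CPM in KO (0.51 ± 0.24, adjusted p = 0.188). For both genes the KO libraries lay above the WT libraries without overlap. The genes of secreted and other inhibitors went the other way. Dkk2, a ligand of the co-receptors Lrp5 and Lrp6, had 3.74, 4.62 and 1.08 CPM in WT and 0.786, 0.488 and 0.324 CPM in KO (-2.55 ± 0.47, adjusted p = 0.0647), and -2.17 without WT replicate 2. Sfrp5, a secreted Wnt-binding protein, had 1.64, 3.14 and 1.62 CPM in WT and 0.555, 0.894 and 0.648 CPM in KO (-1.59 ± 0.52, adjusted p = 0.0824), and -1.21 without WT replicate 2.

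Other low members were no longer lower without WT replicate 2. Nkd1, a cytoplasmic inhibitor that binds Dishevelled, had 8.95, 45.9 and 10.5 CPM in WT and 6.38, 8.82 and 6.34 CPM in KO, so that replicate 2 alone held most of the WT signal. Its log2 fold change was -1.60 with all libraries and -0.44 without that one. The same was seen for Dkk3 (-1.48 and -0.49), a secreted protein of the Dickkopf family, and for the secreted inhibitor Sfrp1 (-1.40 and -0.82). Apcdd1 (-2.30 and -1.34), a membrane-bound inhibitor, and Wif1 (-1.52 and -1.21), a secreted one, were in the same position. Nkd2 (-0.85), Sfrp2 (-0.57) and Sfrp4 (-0.33) did not pass the unadjusted p, and the last 2 of these turned positive without WT replicate 2 (0.27 and 0.49). The median of the list was then -0.44, with 2 lower and 3 higher. By the leave-one-out count Axin2 and Rnf43 were higher and Dkk2 and Sfrp5 lower.

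**Figure D2:**
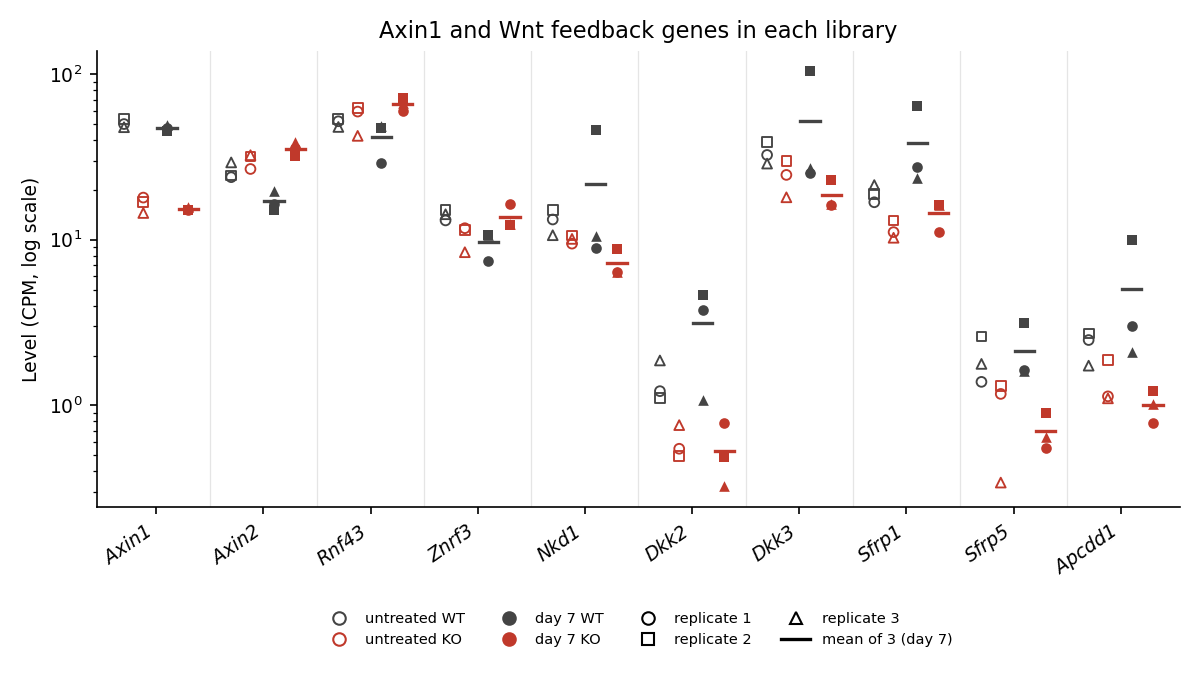
Level in CPM (vertical axis, log scale) of Axin1 and 9 Wnt feedback genes in each untreated (open) and day 7 (filled) library, WT in grey and KO in red, with the replicate shown by the marker shape and the day 7 mean of 3 libraries by a bar. Axin2, Rnf43 and Znrf3 lie higher in day 7 KO than in day 7 WT, and for Nkd1, Dkk3 and Sfrp1 the square of WT replicate 2 lies far above the other libraries.

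Wnt target genes as a whole did not lean one way. Of 20 listed, 19 were tested: 2 were higher, 3 were lower and the median was -0.06, or -0.02 with 2 higher and 2 lower without WT replicate 2. Ephb2, a receptor that positions cells along the crypt, had 84.7, 79.2 and 84.4 CPM in WT and 106, 98.3 and 110 CPM in KO (0.34 ± 0.12, adjusted p = 0.104). Tiam1, an activator of the GTPase Rac, had 9.88, 8.70 and 11.7 CPM in WT and 30.1, 16.4 and 19.9 CPM in KO (1.13 ± 0.36, adjusted p = 0.0804). In both, the lowest KO library was above the highest WT library. Jun, a subunit of the transcription factor AP-1, was lower, with 101, 150.3 and 116 CPM in WT and 67.6, 70.4 and 85.9 CPM in KO (-0.71 ± 0.20, adjusted p = 0.0684). Myc (0.03 ± 0.26) and Ccnd1, the cyclin D1 gene (-0.20 ± 0.22), did not differ beyond the spread between libraries.

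Among stem and progenitor genes (median 0.23 over 18), 2 were higher and 1 lower. Their median was 0.08, with 1 higher and 1 lower, without WT replicate 2. Lgr5, the receptor that marks crypt base stem cells, had 2.61, 0.178 and 0.491 CPM in WT and 3.70, 1.71 and 1.44 CPM in KO, which overlap (1.02 ± 0.74, adjusted p = 0.388). The untreated means were 8.13 CPM in WT and 5.96 CPM in KO. Prom1, which encodes the membrane protein prominin-1, had 457, 191 and 76.9 CPM in WT and 52.0, 48.3 and 52.8 CPM in KO (-2.24 ± 0.67, adjusted p = 0.0722). The WT libraries ranged widely in this gene, and the 3 KO libraries held nearly 1 level.

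Ligand and receptor genes of the pathway (26 of 34 tested) had a median of -0.59, with 6 lower and 1 higher, and of -0.14 without WT replicate 2, with 1 lower and 1 higher. The higher gene was Lrp5, a Wnt co-receptor, with 59.4, 52.1 and 73.4 CPM in WT and 108, 75.5 and 83.5 CPM in KO (0.53 ± 0.16, adjusted p = 0.0750). Wnt5a, a ligand of the beta-catenin-independent branch that is made by stromal cells after injury, had 22.2, 30.7 and 12.96 CPM in WT and 8.33, 9.88 and 7.59 CPM in KO (-1.35 ± 0.34, adjusted p = 0.0647). These groups did not overlap, and Wnt5a stayed lower by the leave-one-out count. Rspo3, the stromal R-spondin that protects Wnt receptors, had 5.97, 34.3 and 6.63 CPM in WT and 3.47, 5.45 and 4.49 CPM in KO, and its log2 fold change went from -1.80 to -0.49 without WT replicate 2.

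Neighbouring crypt pathways were also read. Hes1, the Notch target that holds cells to the absorptive fate, had 47.2, 49.1 and 48.3 CPM in WT and 75.7, 71.2 and 86.6 CPM in KO (0.69 ± 0.13, adjusted p = 0.0647). The WT libraries were nearly identical and the KO libraries were all higher. Nrarp, another Notch target and a feedback inhibitor, had 0.66 ± 0.25 (adjusted p = 0.113), and Dll1, a Notch ligand, -0.47 ± 0.22 (adjusted p = 0.178). The other 15 Notch and secretory fate genes tested were neither lower nor higher. They included the receptors Notch1 (0.10), Notch2 (-0.89, and -0.09 without WT replicate 2), Notch3 (-1.38, and -0.67) and Notch4 (0.08), and the secretory factors Atoh1 (-0.23), Spdef (-0.32), Gfi1 (-0.34) and Neurog3 (-0.27). The median of the 18 tested genes, of 19 listed, was -0.23, or -0.08 with 1 lower and 1 higher without WT replicate 2. In the BMP pathway 7 of 21 genes were lower and 1 was higher (median -0.57, and -0.09 without WT replicate 2). Among the lower ones were the secreted BMP antagonists Grem1, with 166, 583 and 80.7 CPM in WT and 75.3, 49.9 and 38.2 CPM in KO (-2.34 ± 0.55, adjusted p = 0.0647), and Chrd (-1.65 ± 0.40, adjusted p = 0.0647), and the ligand genes Bmp3 (-1.96) and Bmp7 (-1.52). WT replicate 2 carried much of these values: without it they were -1.18 for Grem1, -0.75 for Chrd, -1.16 for Bmp3 and -1.05 for Bmp7. All 4 passed the leave-one-out count, and 4 genes of the list were lower without that library.

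In the EGF family 4 of 13 tested genes (14 listed) were lower and none higher. Egfr, the receptor, had 54.0, 81.3 and 59.7 CPM in WT and 40.6, 39.4 and 40.1 CPM in KO (-0.70 ± 0.21, adjusted p = 0.0717), again with 3 KO libraries at nearly 1 level. The injury-induced ligand genes Nrg1 (-2.26) and Ereg (-2.23) were highest in WT replicate 2, at 19.1, 58.0 and 7.31 CPM and 29.8, 146 and 16.9 CPM over the WT libraries, and had -1.18 and -0.78 without it. The median of the family was -0.12, and without that library 2 were lower.

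Genes of growth and division leaned towards KO. All 21 ribosome biogenesis genes had a log2 fold change above 0, 12 of them were higher, and the median was 0.37. Without WT replicate 2 the median was 0.39 and 10 were higher, and 7 were higher by the leave-one-out count. Nop58, a core protein of the particles that modify ribosomal RNA, had 68.6, 75.5 and 73.7 CPM in WT and 109, 91.0 and 116 CPM in KO (0.54 ± 0.14, adjusted p = 0.0647). Ncl, the gene of nucleolin, had 453, 441 and 400.4 CPM in WT and 641, 515 and 577 CPM in KO (0.42 ± 0.12, adjusted p = 0.0704). Neither gene showed an overlap between genotypes. Wdr43 (0.51), Polr1b (0.60), a subunit of RNA polymerase I, Nolc1 (0.56) and Dkc1 (0.52), the pseudouridine synthase gene, had similar values.

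All 26 cell cycle genes also lay above 0, with 10 higher and a median of 0.70. Together they held 1489, 797.8 and 1018 CPM in WT and 2209, 1907 and 1515 CPM in KO. Here single libraries mattered more. Without WT replicate 2, 4 were higher and the median was 0.48. Without KO replicate 1, the library with Y-linked expression, 4 were higher and the median was 0.55. By the leave-one-out count 3 genes were higher. These were Mcm5 (0.75 ± 0.21, adjusted p = 0.0684), Mcm6 (0.71 ± 0.23, adjusted p = 0.0790) and Tyms (0.74 ± 0.23, adjusted p = 0.0773), a pair of subunits of the DNA replication helicase and thymidylate synthase. Mcm5 had 55.2, 34.4 and 46.2 CPM in WT and 92.6, 68.7 and 67.1 CPM in KO. The proliferation marker Mki67 ran from 217, 85.8 and 109 CPM in WT to 386, 377 and 205 CPM in KO, with 1 KO library inside the WT range (1.24 ± 0.58, adjusted p = 0.187).

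Over all genes, the 15 with the smallest p among those higher in KO were Axin2, Hes1 and 13 others. Mthfd1, a folate enzyme that supplies purine and thymidylate synthesis, had 68.2, 47.0 and 72.3 CPM in WT and 125, 100.5 and 109 CPM in KO (0.83 ± 0.17, adjusted p = 0.0647). Adsl, an enzyme of purine synthesis, had 31.5, 30.4 and 33.7 CPM in WT and 48.8, 42.5 and 46.4 CPM in KO (0.53 ± 0.11). Lig3, a DNA ligase (0.56 ± 0.11), Paxip1, a DNA damage response protein (0.56 ± 0.11), and Dis3, an exosome ribonuclease (0.58 ± 0.12), had similar values. The others were Naa40, an acetyltransferase of histone tails (0.50 ± 0.09), Sh3rf2, a RING finger protein (1.12 ± 0.21), the mitochondrial protease gene Pitrm1 (0.60 ± 0.12), Galm, the galactose mutarotase gene (0.98 ± 0.20), Dglucy (0.77 ± 0.15), Ylpm1 (0.45 ± 0.08), Trim37 (0.53 ± 0.11) and Grhl2, an epithelial transcription factor (0.68 ± 0.14). All 15 shared the adjusted p of 0.0647. The rule that chose them asked for no overlap between the genotypes and a mean of at least 2 CPM.

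Epithelial genes gave a mixed picture. General epithelial markers summed to 18710, 17000 and 25710 CPM in WT and 19420, 23650 and 24950 CPM in KO, with a median of 0.10 over 12 genes and none lower or higher. Tight junction and claudin genes were alike in this (median 0.04 over 17, none lower or higher). Of 15 goblet cell genes 1 was lower and 1 higher (median -0.40), and 2 and 1 without WT replicate 2 (median -0.62). Muc2, the gel-forming mucin, had 5949, 2903 and 4262 CPM in WT and 2443, 2328 and 2909 CPM in KO (-0.77 ± 0.65, adjusted p = 0.463), and KO replicate 3 was level with WT replicate 2. Creb3l1, a transcription factor of secretory cells, had 146, 60.8 and 166 CPM in WT and 290.2, 186 and 214 CPM in KO (0.89 ± 0.27, adjusted p = 0.0737), without overlap.

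Absorptive colonocyte genes had a median of -0.18 over 21, with 1 lower, the brush border gene Ceacam20 (-0.63 ± 0.19), and 1 higher, the butyrate transporter gene Slc16a1 (0.67 ± 0.26). Leaving out WT replicate 2, 3 of these were lower and none higher. Among 14 transcription factors of intestinal identity 4 were higher and none lower (median 0.32), and 1 was higher without WT replicate 2 (median 0.15). Enteroendocrine genes (5 of 15 lower, median -0.69) and tuft cell genes (4 of 13 tested lower, 15 listed, median -0.55) had none higher. In the fit without WT replicate 2 the enteroendocrine list had 3 lower (median -0.34), and the tuft list 2 lower and 1 higher (median -0.43). The peptide hormone gene Cck had 2.40, 0.829 and 1.03 CPM in WT and 0.0925, 0.0813 and 0.185 CPM in KO (-3.53 ± 0.81, adjusted p = 0.0647), and Sst, the somatostatin gene, had -1.90 ± 0.56 with all libraries and -1.12 without WT replicate 2. Fetal-like regeneration genes, which mark repair of injured epithelium, had 6 of 18 lower and a median of -0.65, but 2 lower and a median of -0.16 without WT replicate 2.

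Metabolic lists held few such genes. All 16 oxidative phosphorylation genes lay above 0. Of these 4 were higher (median 0.37), and none were without WT replicate 2 (median 0.11). Fatty acid oxidation and ketogenesis had 2 of 20 higher, among them the peroxisomal enzyme gene Ehhadh (0.81 ± 0.23, adjusted p = 0.0684). Cholesterol synthesis had 1 of 16 higher, and glycolysis and hypoxia 1 of 20 lower, and these counts were 2, 0 and 3 without WT replicate 2. All 16 cholesterol synthesis genes lay above 0 (median 0.38, and 0.14 without WT replicate 2). In metal handling 1 of 15 genes was lower, the ferritin heavy chain gene Fth1 (-0.48 ± 0.17), and 2 were higher (median -0.01), with 0 and 1 without WT replicate 2. The higher ones were Slc11a2 and Slc30a10. Slc11a2, the iron importer of the apical membrane, had 42.5, 67.5 and 60.2 CPM in WT and 74.1, 248 and 96.5 CPM in KO (1.297 ± 0.39, adjusted p = 0.0736), with KO replicate 2 far above the rest. The manganese exporter gene Slc30a10 had 7.06, 6.22 and 10.6 CPM in WT and 32.4, 30.8 and 42.8 CPM in KO (2.15 ± 0.79, adjusted p = 0.107).

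**Figure D3:**
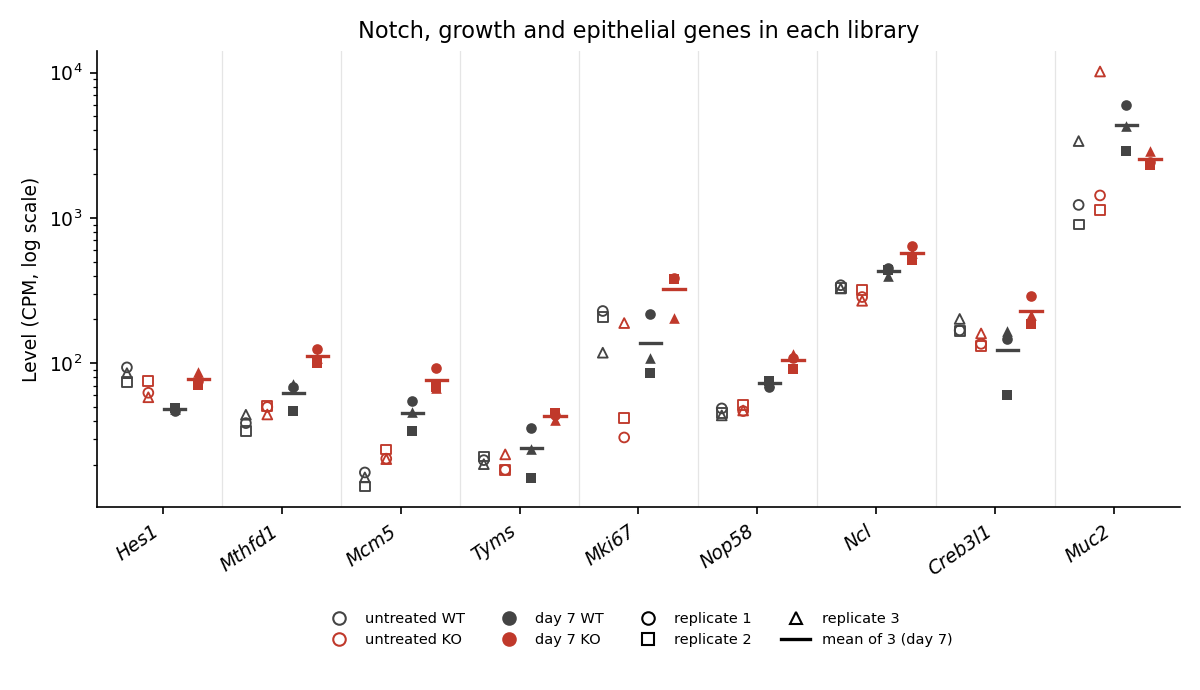
Level in CPM (vertical axis, log scale) of 9 Notch, growth and epithelial genes in each untreated (open) and day 7 (filled) library, WT in grey and KO in red, with the replicate shown by the marker shape and the day 7 mean of 3 libraries by a bar. Hes1, Mthfd1, Mcm5, Tyms, Nop58, Ncl and Creb3l1 show no overlap between the day 7 genotypes, with KO higher, while Mki67 and Muc2 do overlap.

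Many genes that break down matrix or signal inflammation were lower in KO by the unadjusted count, though none passed the adjusted threshold and some lists had few. Of 14 genes of matrix metalloproteinases and their inhibitor Timp1, 11 were lower and none higher (median -2.17). Leaving out WT replicate 2, 8 were lower (median -1.35), and 7 passed the leave-one-out count. The summed levels were 552.3, 1207 and 403.5 CPM in WT and 330.8, 405 and 369.8 CPM in KO, with a slight overlap. Mmp3, Mmp10 and Mmp13 lie close together on chromosome 9, at chr9:7445822-7455975, chr9:7502352-7510240 and chr9:7272514-7283331. They encode the stromelysins 1 and 2 and collagenase 3. Mmp10 had 20.1, 82.7 and 4.76 CPM in WT and 1.53, 0.691 and 1.06 CPM in KO (-5.03 ± 0.95, adjusted p = 0.0647; -3.51 without WT replicate 2). Mmp13 had 28.04, 108 and 15.3 CPM in WT and 2.82, 1.95 and 2.04 CPM in KO (-4.47 ± 0.84, adjusted p = 0.0647; -3.25 without it). In both, the highest KO library lay below the lowest WT library, although the WT libraries themselves differed several-fold. For Mmp3 the gap was narrow: it had 27.6, 106 and 8.15 CPM in WT and 8.10, 1.67 and 2.18 CPM in KO (-3.57 ± 0.91, adjusted p = 0.0647; -2.17 without WT replicate 2), and KO replicate 1 was level with WT replicate 3.

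The promoters of these 3 genes share a short motif, so their sequences are shown beside the values, together with Il11, the most reduced member of the interleukin-6 family. AP-1, the dimer of Jun and Fos proteins, binds TGACTCA, which reads TGAGTCA on the other strand. The windows are the 120 bases before the transcription start in RefSeq (GRCm38.p6), on the strand of the gene, with the match in capitals.
Mmp3 (chr9:7445702-7445821, plus strand): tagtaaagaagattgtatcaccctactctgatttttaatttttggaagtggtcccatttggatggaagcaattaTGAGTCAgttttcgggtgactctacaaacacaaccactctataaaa
Mmp10 (chr9:7502222-7502341, plus strand): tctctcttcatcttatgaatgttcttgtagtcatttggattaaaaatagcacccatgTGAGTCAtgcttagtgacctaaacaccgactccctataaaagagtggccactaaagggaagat
Mmp13 (chr9:7272394-7272513, plus strand): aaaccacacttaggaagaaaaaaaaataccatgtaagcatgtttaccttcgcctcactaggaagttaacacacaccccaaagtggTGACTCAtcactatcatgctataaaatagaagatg
Il11 (chr7:4778142-4778261, minus strand, 1 of 2 starts): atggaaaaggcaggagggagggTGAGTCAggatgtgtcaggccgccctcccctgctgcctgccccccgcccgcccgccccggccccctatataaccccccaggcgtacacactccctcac
The match began 46 bases before the start in Mmp3, 63 in Mmp10, 35 in Mmp13 and 98 in Il11. It was held by 5 of the 12 genes of the metalloproteinase list that have a promoter in the table (Mmp3, Mmp7, Mmp10, Mmp12 and Mmp13), and by 724 of all 27025 genes in the table (2.68%; 2.3% of the 32851 windows of the same length). It was also held by 1 of 13 interleukin-6 family genes (Il11), 1 of 19 chemokine genes (Cxcl10) and 1 of 15 interleukin-1 family genes (Il1a). Of the 5 metalloproteinase genes with a match, Mmp7 and Mmp12 did not pass the leave-one-out count. Timp1, Mmp2, Mmp8 and Mmp9 passed it and were not among the genes found with a match. A match is a run of letters and not a measured binding site.

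Il11 encodes a cytokine made by stromal cells after epithelial injury. It had 6.30, 29.5 and 1.38 CPM in WT and 0.648, 0.203 and 0.741 CPM in KO (-4.54 ± 0.91, adjusted p = 0.0647; -2.86 without WT replicate 2). Within the interleukin-6 family 6 of 15 were lower and 1 higher, Ctf1 (1.06). Without WT replicate 2 these were 4 and 1, and the median went from -0.54 to -0.31. The receptor gene Osmr, for oncostatin M, had 17.5, 56.0 and 18.8 CPM in WT and 7.08, 7.72 and 10.2 CPM in KO (-1.88 ± 0.43, adjusted p = 0.0647; -1.12 without WT replicate 2). Il6 itself was at low levels, with 0.841, 2.90 and 0.344 CPM in WT and 0.0925, 0.0407 and 0.324 CPM in KO (-3.12 ± 0.90; -1.96 without WT replicate 2). In the interleukin-1 family 10 of 15 tested genes (16 listed) were lower, but 2 without WT replicate 2. Il1b, an inflammatory cytokine gene, passed the leave-one-out count, with 22.5, 48.5 and 8.64 CPM in WT and 1.99, 1.42 and 3.10 CPM in KO (-3.61 ± 0.80, adjusted p = 0.0647; -2.85 without that library). Both WT and KO libraries at day 7 were above the untreated ones, which held 0.168, 0.268 and 0.478 CPM in WT and 1.09, 0.781 and 0.418 CPM in KO.

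Chemokine genes kept their median when WT replicate 2 was left out. Of 27 tested, 17 were lower and none higher with all libraries (median -1.63), 13 without WT replicate 2 (median -1.63) and 10 by the leave-one-out count. The summed levels overlapped, at 590, 854.5 and 867 CPM in WT and 454.7, 548.9 and 617.1 CPM in KO. Ccl2, which draws monocytes through the receptor Ccr2, had 4.25, 14.7 and 4.17 CPM in WT and 0.463, 0.976 and 1.16 CPM in KO (-3.14 ± 0.71, adjusted p = 0.0647; -2.27 without WT replicate 2). Cxcl16 had 24.7, 49.96 and 29.6 CPM in WT and 11.7, 13.2 and 15.8 CPM in KO (-1.36 ± 0.28, adjusted p = 0.0647). The neutrophil attractant gene Cxcl2 had 5.002, 15.98 and 6.53 CPM in WT and 0.185, 0.203 and 2.08 CPM in KO (-3.48 ± 1.077, adjusted p = 0.0753; -2.81 without WT replicate 2). The groups did not overlap in any of the 3 genes, and WT replicate 2 was the highest in each. Of 17 chemokine receptor genes tested (18 listed), 12 were lower and none higher (median -1.65), among them Ccr2 (-1.81 ± 0.47), and 7 were lower without WT replicate 2 (median -1.09).

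NF-kappaB is a transcription factor of inflammatory signalling, and its motif was sought in the same windows on either strand, as GGGA, any base and then TTTCC. It was found in 56 of the 27025 genes (0.21%; 0.18% of the windows), in 3 of the 19 chemokine genes that have a promoter in the table (Cxcl1, Cxcl2 and Cxcl3), in 1 of 13 interleukin-6 family genes (Il6), and in none of the 15 interleukin-1 family and 12 metalloproteinase genes.
Cxcl2 (chr5:90903779-90903898, plus strand): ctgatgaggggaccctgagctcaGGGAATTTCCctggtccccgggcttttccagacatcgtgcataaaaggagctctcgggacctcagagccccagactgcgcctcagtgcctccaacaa
Il6 (chr5:30012994-30013113, plus strand): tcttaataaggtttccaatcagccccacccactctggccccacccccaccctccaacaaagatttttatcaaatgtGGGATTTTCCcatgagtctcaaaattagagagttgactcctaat
In these the match began 97 and 44 bases before the start.

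Antimicrobial and acute phase genes were lower in 10 of 15, with none higher (median -1.33), and in 8 without WT replicate 2 (median -1.16). Their summed level overlapped between genotypes, at 16040, 15360 and 24280 CPM in WT and 13710, 17540 and 17390 CPM in KO. The genes named next held a small part of these sums. Saa3, a serum amyloid A gene, had 91.6, 131 and 32.2 CPM in WT and 1.57, 5.25 and 2.45 CPM in KO (-4.77 ± 1.298, adjusted p = 0.0666). Lcn2, the iron-sequestering lipocalin, had 16.7, 27.1 and 9.96 CPM in WT and 1.62, 2.97 and 3.24 CPM in KO (-2.77 ± 0.70, adjusted p = 0.0647), and Hp, the haptoglobin gene, had 21.0, 23.8 and 2.60 CPM in WT and 0.370, 0.529 and 0.185 CPM in KO (-5.42 ± 1.07, adjusted p = 0.0647). None of the 3 genes overlapped between genotypes. Reg3b, a secreted lectin gene, was high in 1 library only, with 993, 3.61 and 0.638 CPM in WT and 0.139, 0.0813 and 0.509 CPM in KO. The TNF superfamily had 14 of 23 tested genes (26 listed) lower and none higher (median -1.03), and 9 lower without WT replicate 2 (median -0.94). Its summed levels overlapped too, at 681.8, 1027 and 1165 CPM in WT and 691.6, 646.8 and 908.8 CPM in KO. Genes of prostaglandin synthesis and its receptors (6 of 15 tested lower, 18 listed) had 1 lower without WT replicate 2, and the IL-17, IL-22 and IL-23 axis had 3 of 11 tested genes (15 listed) lower, or 2 without it, where its median went from -0.67 to -0.05. Among 18 inflammasome and gasdermin genes (median 0.02) Nlrp3 was lower (-2.70 ± 0.82), while Gsdmc3 (1.37 ± 0.53) and Gsdmc2 (0.77 ± 0.33) were higher, though not without WT replicate 2. These gasdermins C are close paralogs, so their reads may have been shared.

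Antigen presentation had another order of libraries. Of 21 tested genes (22 listed) of the interferon-gamma response and antigen presentation 16 were lower, all 21 lay below 0, and the median was -1.53. Leaving out WT replicate 2, 16 were lower, with a median of -1.50. Without WT replicate 3, 8 were lower, with a median of -1.25, and 7 passed the leave-one-out count. The summed level was 1526, 1874 and 3291 CPM in WT, highest in replicate 3, and 842, 909 and 1010 CPM in KO. Cd74, the invariant chain of MHC class II, had 221, 462 and 870.2 CPM in WT and 101, 109 and 112 CPM in KO (-2.27 ± 0.62, adjusted p = 0.0667). The class II gene H2-Ab1 had 87.4, 142 and 204 CPM in WT and 38.4, 40.7 and 51.7 CPM in KO (-1.73 ± 0.49, adjusted p = 0.0684). The KO values lay within or just below the untreated ones, which for Cd74 were 121, 80.5 and 132 CPM in WT and 224, 173 and 92.7 CPM in KO. Ido1, an interferon-induced enzyme that degrades tryptophan, had 11.3, 1.302 and 15.7 CPM in WT and 0.416, 0.285 and 0.139 CPM in KO (-5.05 ± 1.28, adjusted p = 0.0647), and here WT replicate 2 was the lowest WT library. Untreated KO libraries held 9.82, 1.28 and 16.01 CPM of Ido1, above those of KO at day 7. Type I interferon response genes were lower in 2 of 22, with and without WT replicate 2 (medians -0.63 and -0.77). Their summed level was highest in WT replicate 3 (602.2, 739 and 1158 CPM over the WT libraries). Without that library 0 were lower (median -0.28), and 0 passed the leave-one-out count. All 22 lay below 0, and in 8 every KO library was below every WT library, against 12.9% of all genes.

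**Figure D4:**
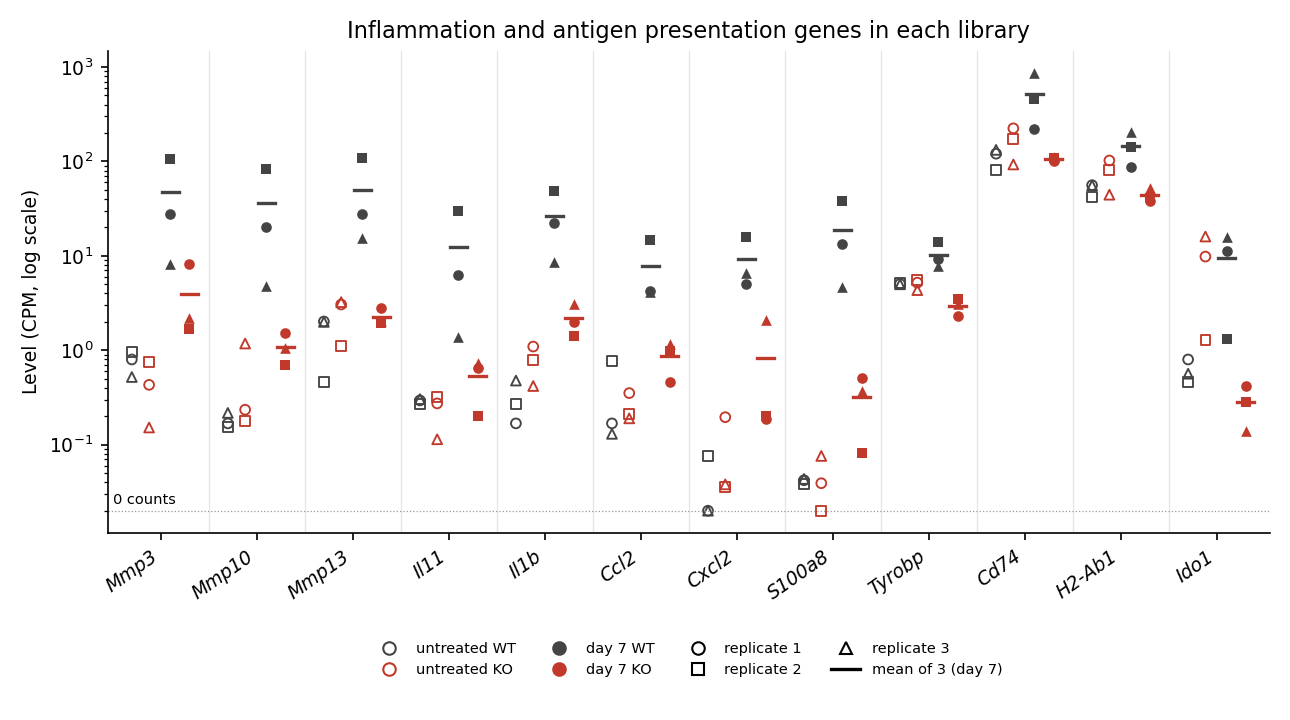
Level in CPM (vertical axis, log scale, with libraries at 0 drawn on the dotted line) of 12 genes of matrix breakdown, inflammation and antigen presentation in each untreated (open) and day 7 (filled) library, WT in grey and KO in red, with the replicate shown by the marker shape and the day 7 mean of 3 libraries by a bar. Among the day 7 libraries, WT replicate 2 is the highest for Mmp3 to Tyrobp and WT replicate 3 for Cd74, H2-Ab1 and Ido1. The day 7 KO libraries lie below the day 7 WT libraries in all 12 genes, by a small margin in Mmp3.

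Most markers of myeloid cells were lower in KO as well. Of 18 monocyte and macrophage genes 16 were lower, 13 without WT replicate 2, and 12 by the leave-one-out count (median -1.20, and -1.02 without that library). Their summed level was 372, 548 and 444 CPM in WT and 181, 266 and 238 CPM in KO. Aif1, which encodes the macrophage protein Iba1, had 5.63, 7.16 and 5.11 CPM in WT and 0.786, 1.99 and 1.85 CPM in KO (-1.94 ± 0.32, adjusted p = 0.0647). Tyrobp, a signalling adaptor of myeloid receptors, had 9.25, 13.8 and 7.76 CPM in WT and 2.31, 3.46 and 3.10 CPM in KO (-1.79 ± 0.31, adjusted p = 0.0647). The untreated libraries lay between, at 5.04, 5.17 and 4.99 CPM in WT and 5.20, 5.58 and 4.33 CPM in KO for Tyrobp. Neutrophil genes had 11 of 13 tested genes (15 listed) lower, the same number without WT replicate 2, and a median of -5.16, or -3.48 without it. The fall in their summed level was smaller, from 293.2, 477.6 and 325.3 CPM in WT to 136.2, 138.5 and 152.8 CPM in KO. Untreated libraries summed to 105.6 to 164.1 CPM in WT and 6.045 to 129.6 CPM in KO. S100a8, which encodes a subunit of the neutrophil protein calprotectin, had 13.4, 37.9 and 4.66 CPM in WT and 0.509, 0.0813 and 0.370 CPM in KO (-5.87 ± 1.22, adjusted p = 0.0647; -4.83 without WT replicate 2). Elane, a defining gene of immature neutrophils, was at 0 in all 6 libraries.

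T cell genes were lower in 16 of 17 (median -1.85) and in 9 without WT replicate 2 (median -1.45), at low levels that summed to 26.8, 45.9 and 19.6 CPM in WT and 9.99, 9.64 and 8.34 CPM in KO. Ctla4 had 1.68, 3.91 and 1.03 CPM in WT and 0.185, 0.122 and 0.370 CPM in KO (-3.26 ± 0.68; -2.58 without WT replicate 2), and Icos, a costimulatory receptor gene, had -2.61 ± 0.55 with all libraries and -1.999 without it. Dendritic cell genes had 5 of 9 lower with and without WT replicate 2, and genes of NK cells and cytotoxic effectors 4 of the 5 tested (9 listed), or 3 without it. Gzmb, the granzyme B gene, was even within each group, with 1.64, 1.72 and 1.96 CPM in WT and 0.185, 0.244 and 0.417 CPM in KO (-2.63 ± 0.79, adjusted p = 0.0729). Il5ra, the interleukin-5 receptor of eosinophils and some B cells, had 6.26, 17.8 and 1.62 CPM in WT and 0.231, 0.244 and 0.232 CPM in KO (-5.15 ± 0.89, adjusted p = 0.0647; -4.04 without WT replicate 2). Of B and plasma cell genes, 8 of 15 were lower with all libraries and 0 without WT replicate 2.

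Several genes of the deeper wall were highest in WT replicate 2. Smooth muscle genes had 7 of 14 lower (median -0.85) and 0 without that library (median -0.20). Enteric neuron and glia genes were lower in all 17 (median -1.65) and in 8 without it (median -0.80). Their summed level was 171, 545 and 143 CPM in WT and 95.8, 79.0 and 91.6 CPM in KO. Tubb3, a neuronal tubulin gene, had 11.5, 23.4 and 6.58 CPM in WT and 3.42, 3.38 and 3.66 CPM in KO (-1.99 ± 0.42, adjusted p = 0.0647; -1.37 without WT replicate 2). Fibroblast and matrix genes were lower in 16 of 18 (median -1.26) and in 5 without it (median -0.58). Pdgfra, a receptor gene of intestinal fibroblasts, had 55.4, 127 and 42.9 CPM in WT and 27.1, 28.01 and 27.97 CPM in KO (-1.44 ± 0.34, adjusted p = 0.0647; -0.83 without WT replicate 2). Endothelial genes were lower in 14 of 18 and in 5 without it. The leave-one-out count held the adhesion genes Vcam1 (-1.96 ± 0.52), Icam1 (-1.88 ± 0.47) and Selp (-3.16 ± 0.84), which had -1.34, -1.40 and -1.39 without that library. With the smooth muscle level as a covariate, 1258 of all genes were lower (6.95%) and 1326 higher (7.33%) by the unadjusted p, and 2 passed the adjusted threshold. The covariate is the mean log2 level of the 14 smooth muscle genes, so their own median, 0.04, was set near 0 by construction. Chemokines had 13 lower (median -1.76), interferon-gamma and antigen presentation 17 (median -1.59), monocytes and macrophages 14 (median -1.02), T cells 12 (median -1.81), neutrophils 11 (median -3.71) and metalloproteinases 8 (median -1.55). Fibroblast genes had 6 lower (median -0.61), B and plasma cell genes 0 (median -1.48), and the Wnt feedback inhibitors 2 lower and 3 higher (median -0.37). Of 26 cell cycle genes 2 were higher (median 0.46), a share close to that of all genes, and of 21 ribosome biogenesis genes 7 (median 0.26). The BMP pathway had a median of 0.01, with 4 of 21 genes lower and 1 higher.

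**Figure D5:**
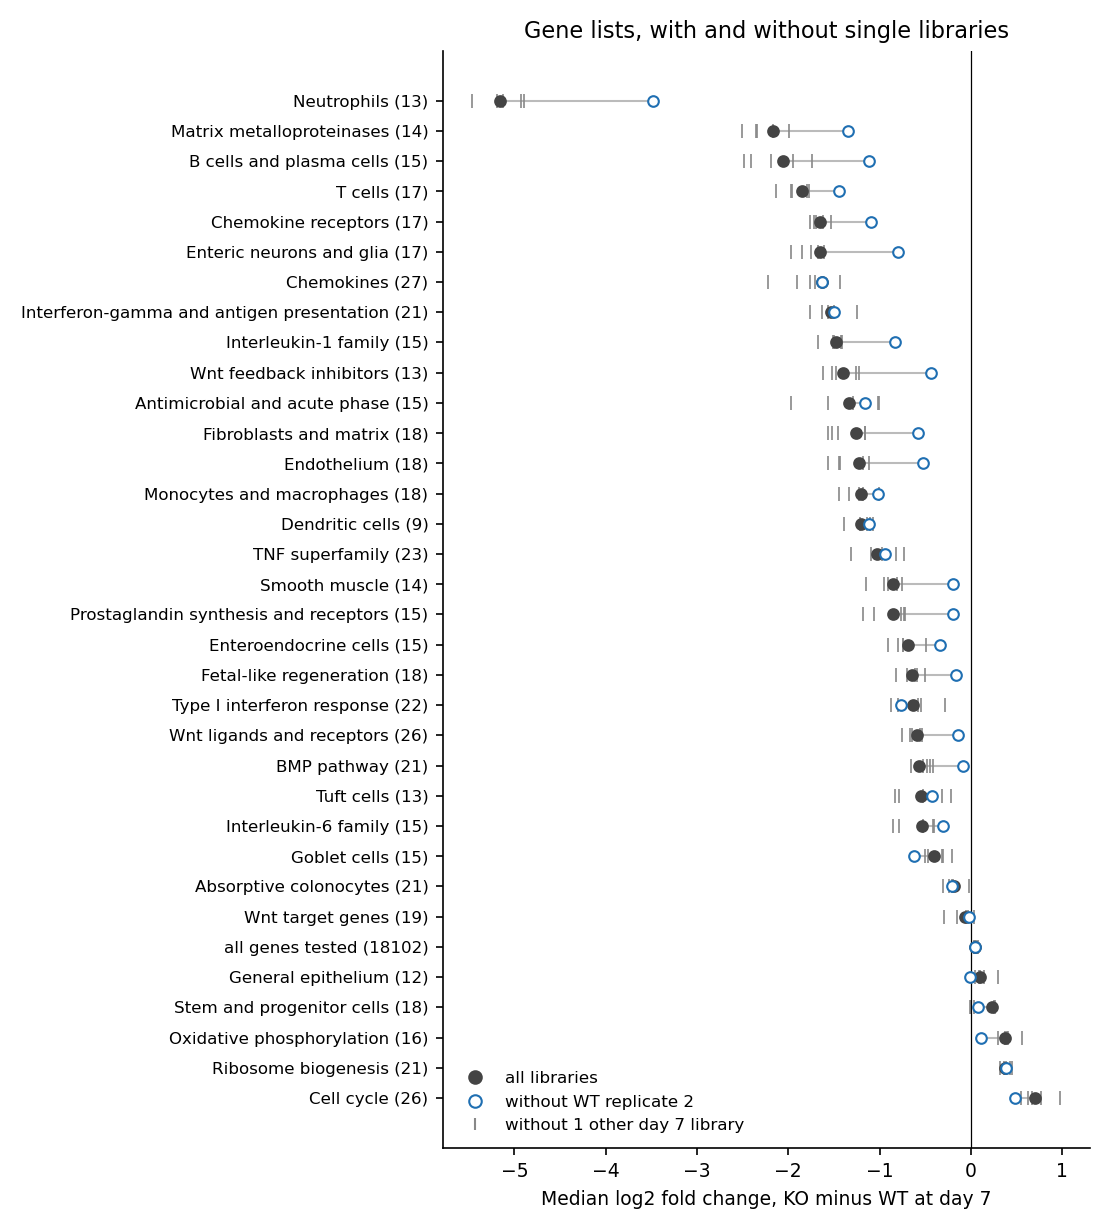
Median log2 fold change of KO against WT at day 7 (horizontal axis) for 33 gene lists and all genes tested (vertical axis, genes tested in parentheses), with all libraries (grey points), without WT replicate 2 (blue circles) and without each other day 7 library (ticks). Chemokines, antigen presentation, dendritic cells, the TNF superfamily and ribosome biogenesis hardly move without WT replicate 2, while smooth muscle, enteric neuron, fibroblast, Wnt feedback and BMP lists move towards 0.

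The genes with the smallest p among those lower in KO included several outside these lists. Gcnt2, a glycosyltransferase gene of branched poly-N-acetyllactosamine chains, had 43.1, 89.8 and 47.0 CPM in WT and 18.1, 21.6 and 21.2 CPM in KO (-1.56 ± 0.24; -1.15 without WT replicate 2). March3, a membrane-bound ubiquitin ligase gene, was even within groups, with 10.3, 10.4 and 10.7 CPM in WT and 4.16, 5.65 and 5.70 CPM in KO (-1.01 ± 0.17). Tlr12, a Toll-like receptor gene, had 2.82, 2.43 and 2.94 CPM in WT and 0.786, 0.650 and 1.02 CPM in KO (-1.74 ± 0.34). March3 and Tlr12 were not highest in WT replicate 2, unlike most lower genes. Igsf6 (-2.65 ± 0.47), Serpini1, which encodes neuroserpin (-1.87 ± 0.36), and Dirc2 (-0.59 ± 0.12) shared the adjusted p of 0.0647 with them.

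The difference between genotypes at day 7 was then set against that in untreated colon and at day 13, as a difference of log2 differences in the same fit. These comparisons share the day 7 libraries. Sex moved with the groups here: Y-linked expression was found in 2 of 3 untreated WT libraries and 3 of 3 untreated KO libraries, in 3 of 3 WT and 0 of 3 KO libraries at day 13, and in 0 of 3 WT and 1 of 3 KO libraries at day 7. Genotype and sex therefore cannot be told apart within day 13, and neither contrast is one of genotype alone. With the Y-linked level as a covariate no gene passed in either. No gene passed an adjusted p of 0.05 in either, with 2487 of 18102 (13.7%) and 2125 (11.7%) at an unadjusted p under 0.05 and 363 (2.19%) and 282 (1.7%) past the threshold by DESeq2. Leaving out untreated KO replicate 2 or 3 gave 36 and 101 genes in the first, and leaving out day 7 WT replicate 3 or day 13 KO replicate 1 gave 2 in the second. Against untreated colon, the 3 genes with the smallest p and a positive difference were Hes1 (1.06 ± 0.18), Sh3rf2 (1.59 ± 0.29) and Erfe, a regulator of iron (1.56 ± 0.30). Hes1 was lower in KO than in WT in untreated colon (65.4 against 84.4 CPM) and higher in KO at day 7 (77.8 against 48.2 CPM). Those with a negative difference were Apol7a (-3.26 ± 0.50), Gzmb (-7.497 ± 1.29) and Zbp1, a sensor of nucleic acids (-4.03 ± 0.72), and the adjusted p was 0.168 for all 6. The 5 tested NK and cytotoxic genes, Gzmb among them, together summed to 0.4213 to 1.52 CPM in untreated WT. In untreated KO they summed to 2.38 to 8.592 CPM, so the value for Gzmb rests on low counts. Zbp1 had 11.1, 10.6 and 12.7 CPM in untreated WT and 60.9, 21.6 and 142 CPM in untreated KO, against 67.2, 81.3 and 119 CPM in WT and 26.1, 44.7 and 36.2 CPM in KO at day 7. The untreated KO libraries were uneven, with replicate 3 the highest and replicate 2 the lowest, and their type I interferon genes summed to between 457 and 3179 CPM, against 348 to 405 CPM in untreated WT. Axin1 itself differed by -0.01 ± 0.16 between day 7 and untreated colon and by 0.15 ± 0.16 between day 7 and day 13, both within error.

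Against day 13 the smallest p values belonged to Nab1, a corepressor of Egr factors (1.06 ± 0.18), Fasn, the fatty acid synthase gene (1.62 ± 0.28), and Nup107, a nuclear pore gene (1.17 ± 0.20), and in the other direction to Lbh (-2.49 ± 0.41), Igsf23 (-2.88 ± 0.50) and Cacna1e, a calcium channel gene (-3.05 ± 0.53), with an adjusted p of 0.0908 for all 6. Fasn had 277 CPM in WT and 426 CPM in KO at day 7, and 287 CPM in WT and 144 CPM in KO at day 13. Several inflammatory genes had lower KO means at both times. Il1b had 26.6 against 2.17 CPM at day 7 and 51.0 against 0.681 CPM at day 13, and Mmp13 had 50.3 against 2.27 CPM and 21.98 against 1.71 CPM. The difference between the times was 2.62 ± 1.11 for Il1b (adjusted p = 0.371) and -0.80 ± 1.07 for Mmp13 (adjusted p = 0.842), so neither was shown to depend on the day. The day 13 values carry the sex difference given above. The day 13 libraries were also uneven within a genotype. Neutrophil genes summed to 218.8 to 2313 CPM in WT and 179.6 to 433.7 CPM in KO. Squamous epithelium genes summed to 9.778 to 5027 CPM in WT and 5.186 to 1122 CPM in KO. For Rnf43 the means were 41.7 against 66.1 CPM at day 7 and 31.9 against 69.7 CPM at day 13.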

How the data were processed

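RNA-seq of mouse colon was deposited as 1 gene table per library, with expected counts and TPM values for 55487 genes, of which 55141 matched a symbol. Per the submitters' processing notes, the authors used STAR 2.7.6a, RSEM 1.3.1 and the build GRCm38, and per the file headers the values are RSEM's expected counts and TPM. The sources used here name neither the annotation nor the strand setting, so overlapping genes, antisense genes and close paralogs may share reads. In the day 7 tables, 26% to 27.26% of the deposited expected counts above 0 were not whole, and expected counts were rounded for the tests. Genes without a symbol took at most 0.0742% of the counts.

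The main fit was edgeR 4.0.16 in R 4.3.3 (limma 3.58.1) on the 18 colon libraries in 6 groups, which share 1 estimate of the spread. It used TMM scaling, the default filter on low counts (a minimum count of 10 and a total of 15), the robust quasi-likelihood F test and Benjamini-Hochberg adjustment over all genes tested, with a threshold of 0.05. CPM are from that fit, and the 6 tumour libraries entered only an alternative. The day 7 effect was also compared with those of untreated and day 13 colon as interaction contrasts. DESeq2 1.42.0, other scaling, filters, covariates and leaving out libraries were alternatives. The steps were tested on simulated data.

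Replicates of a group differed by far more than sampling noise (chi-square per gene between pairs 75.1 to 109 in WT and 25.2 to 32.1 in KO), so no library was counted as a repeat of another. Group members and gene lists were chosen with earlier results of these data known. Named genes were Axin1, up to 6 members of each list with the smallest p, Lgr5, Myc, Ccnd1, Mki67, Muc2, all tested Wnt feedback and Notch genes, up to 15 genes per direction over all genes with the smallest p (no overlap, a mean of at least 2 CPM), and 3 per direction for each interaction. Genes named only for a motif match or for having no counts fall outside that rule, and the data were known when they were picked. A few genes that it selects are not reported here. Promoters came from RefSeq (GRCm38.p6).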

Additional observations from a re-analysis of the deposited data

How the results depend on the processing

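At day 7, where 1 gene passed, 2451 did at a threshold of 0.10, 2454 with DESeq2, 850 with all 24 libraries in the fit, 2 without a filter on low counts and 2 with the smooth muscle level as a covariate. Leaving out 1 library gave 1 to 2441 genes. For the difference from untreated colon, where no gene passed, DESeq2 gave 363 and leaving out 1 library 0 to 101. For the difference from day 13, where no gene passed either, a threshold of 0.10 gave 8, DESeq2 282 and leaving out 1 library 0 to 2. The cause was not tested. Of 1992 values for 125 genes, 1647 kept their direction and side of the threshold and 330 kept their direction and came past it (104 with DESeq2, 88 without WT replicate 3, 71 without WT replicate 1, 66 with all 24 libraries, 1 without the filter). The other 15 changed sign, all in 4 genes that were not past the threshold. With the smooth muscle level as a covariate Sfrp2 had 0.88 and Sfrp4 1.02, without the pair of libraries numbered S15 and S16 they had 0.14 and 0.82, and without KO replicate 1 and WT replicate 2 together 0.60 and 0.60. Myc had -0.0074 in the 6 day 7 libraries alone, -0.00346 with all 24 and -0.22 without S15 and S16. With 1 library left out, Sfrp2 ran from -1.07 to 0.27, Sfrp4 from -0.91 to 0.49, Myc from -0.34 to 0.28 and Ccnd1 from -0.33 to 0.012. List medians moved beyond the spread between replicates in 113 of 800 values, in 37 of 50 lists. No paired analysis was possible because the labels carry no replicate numbers, and the numbers used here follow accession order. Intervals cover the spread between these mice, and genes with a few counts per library in KO have fold changes that depend on the prior count.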

Other observations

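The Myc network and D cyclins had a median of 0.01 over 15 genes, with none lower or higher by the unadjusted p of 0.05. Core clock genes had 1 lower and 2 higher of 16, among them the clock output factor Hlf (-1.89 ± 0.63) and Clock itself (0.58 ± 0.20). Immediate early genes had 3 lower of 11 and a median of -0.70, which was 0.00 without WT replicate 2, and Dusp1, a phosphatase gene induced by stress, had 24.9, 69.7 and 39.3 CPM in WT and 14.8, 15.8 and 20.5 CPM in KO. Red blood cell genes (5, median -1.54) and squamous epithelium genes (8 of 12 tested, median -0.18) had none lower or higher. Of mast cell genes 1 of 4 tested was lower, of eosinophil genes 1 of 2, and of adipocyte genes 2 of 2, from lists of 9, 5 and 6.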
